A study of Homo sapiens with 18 samples.

Results

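Of the 20705 gene symbols counted, 49 were picked by name as cancer-testis antigen genes, that is, symbols beginning with MAGE (families A to H), GAGE, XAGE, PAGE, SSX, CSAG, CTAG or CT45A, together with PRAME. They comprised 15 type I MAGE genes, 7 type II MAGE genes, 7 GAGE and PAGE genes, 12 CT45, CTAG and CSAG genes, 4 SSX genes, PRAME, and 3 genes that share only the letters. The last 3 are SSX2IP, which encodes a centrosomal protein that binds SSX2, CTAGE5 (now MIA2), which encodes a protein of endoplasmic reticulum exit sites, and the pseudogene CTAGE3P. They were kept in every count of the 49. No XAGE symbol was analysed here. Of the 49 genes, 44 lie on the X chromosome.

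Cancer-testis antigens are proteins made in male germ cells and, in adults, rarely elsewhere, whose genes are switched on in many melanomas and other tumours, where peptides from them can be presented to T cells. Their promoters are held silent in most somatic cells by DNA methylation and by repressive histone modification. The MAGE proteins share a homology domain through which many of them bind and steer E3 ubiquitin ligases. Type I MAGE genes (MAGEA, MAGEB and MAGEC) follow the germline pattern, whereas type II genes (MAGED, MAGEE, MAGEF and MAGEH) are expressed in many normal tissues.

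The libraries came from 2 human melanoma cell lines. CHL1 is wild type for BRAF and NRAS and mutant for p53, and A375 is mutant for BRAF and wild type for p53. CHL1 cells were treated for 72 hours with DMSO (control), 1 μM palbociclib, an inhibitor of the cyclin-dependent kinases CDK4 and CDK6 (CDK4/6i), or 500 nM GSK3326595, an inhibitor of the arginine methyltransferase PRMT5 (PRMT5i), and for 6 days with palbociclib. A375 cells received the same treatments and had a DMSO control at each time. Each of the 9 groups had 2 libraries, 18 in all. The CHL1 palbociclib samples of 6 days were compared with the DMSO samples of 72 hours, the only CHL1 control. By their names, every CHL1 library and the 6-day A375 libraries form 1 library set, to which the 72-hour A375 libraries do not belong. CHL1 and A375 were also grown in different media, so line, medium and, at 72 hours, library set cannot be told apart. Each condition is 1 cell line, and the labels do not say that replicates came from separate cultures, so p-values measure only the spread between these libraries, which may be technical.

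Library totals ranged from 16213475 to 37424081 counts. The 49 genes took 0.0428 to 0.0770% of the counts in the CHL1 libraries and 0.117 to 0.186% in the A375 libraries. The libraries of 2 groups stood apart in base composition. The difference between the 10% of genes with the highest GC content and the 10% with the lowest, in median log2 deviation from each gene's median over the libraries of the line, was −2.49 and −1.98 for CHL1 PRMT5i. It was −2.27 and −1.12 for the 6-day A375 controls, and the other libraries ranged from −0.17 to 0.50. Counts of calls and called members that rest on these groups are therefore given with and without a correction for GC content, which was fitted over the 16360 genes with a GC value. Of 8 melanocyte markers, 6 were analysed. They summed to 155 to 285 CPM (counts scaled to a common library total) in the CHL1 libraries and 113 to 263 CPM in the A375 libraries. In the 72-hour controls, 2 were higher in CHL1 (29.3% of all genes were), DCT the most, and 1 was lower (29.6%). Against the 6-day A375 control, 1 was higher in CHL1 (29.5%), DCT, and 2 were lower (31.5%). TYR, the rate-limiting enzyme of melanin synthesis, had at most 3 counts in every CHL1 library. SOX10, MLANA and 7 germ cell markers were not analysed here. The 3 markers of other cell types summed to 7.48 to 17.3 CPM in CHL1 and 2.07 to 11.2 CPM in A375.

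Levels are given as CPM. A gene was treated as at the floor in a group when it had at most 3 counts in each library, which corresponds to 0.101 to 0.143 CPM in the CHL1 libraries. A gene was called when its adjusted p in edgeR's quasi-likelihood test, over all 20705 genes, was below 0.05. Bulk RNA cannot tell fewer expressing cells from less RNA per cell.

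The largest contrast was between the lines themselves. Without drug, A375 cells expressed a broad set of germline antigens that CHL1 cells did not. In the DMSO samples of 72 hours, 30 of the 49 genes were lower in CHL1 (29.6% of all genes were) and 9 were higher (29.3% of all genes). The median log2 fold change, CHL1 over A375, was −3.49 over the 49 genes and −0.02 over all genes. With the 31 genes that were at the floor in 1 of the lines set at their bounds, the median of the 49 was −1.69. Against the A375 control of 6 days, which belongs to the library set of CHL1, 31 were lower (31.5% of all genes) and 9 higher (29.5%), and with GC correction 33 were lower (32.1%) and 9 higher (35.0%). The 9 higher at 72 hours included SSX2IP and the 31 lower against the 6-day control included CTAGE5, both of which share only letters with the families. By class, at 72 hours, CHL1 was lower for 9 and higher for 4 of the 15 type I MAGE genes, and lower for 6 of the 7 GAGE and PAGE genes, 10 of the 12 CT45, CTAG and CSAG genes, 3 of the 4 SSX genes and PRAME. The type II MAGE genes had the opposite split, with 4 of 7 higher and 1 lower in CHL1.

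MAGEA4, which binds the ubiquitin ligase RAD18, was the most abundant member per kilobase of transcript in A375, at 307 CPM per kb in the control of 72 hours. Its level was 544 and 673 CPM in the A375 controls of 72 hours, 542 and 576 CPM in those of 6 days, and 0 in all 8 CHL1 libraries. The 3-count floor sets the control difference at 72 hours at 5793-fold or more. Its gene lies at chrX:151080967-151093643 (GRCh37).

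PRAME, at chr22:22890123-22901768, encodes a repressor of retinoic acid receptor signalling that also serves as a substrate receptor of cullin ubiquitin ligases. It was at 127 and 125 CPM in the A375 controls of 72 hours and at 76.4 and 87.0 CPM in those of 6 days. No CHL1 library exceeded 0.075 CPM, and the control difference at 72 hours was at least 1201-fold. MAGEC2, a partner of the ubiquitin ligase TRIM28, was at 110 and 133 CPM in the A375 controls of 72 hours and was counted in 1 of 8 CHL1 libraries, at 0.038 CPM, a control difference of at least 1160-fold. Thus every A375 library lay far above every CHL1 library for all 3 genes.

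The same separation held at lower levels. At 72 hours, the bounds were at least 408-fold for PAGE5, a GAGE-related antigen (39.7 and 46.0 CPM in the A375 controls), and 251-fold for MAGEA11, a coregulator of the androgen receptor (24.8 and 27.9 CPM). They were 80.1-fold for CT45A1 (7.34 and 9.48 CPM), 68.2-fold for PAGE2 (6.81 and 7.53 CPM), 38.4-fold for MAGEA1, the founding MAGE tumour antigen (3.23 and 4.84 CPM), and 17.8-fold for MAGEB2, an RNA-binding MAGE protein (1.45 and 2.30 CPM). CTAG1B, which encodes the vaccine antigen NY-ESO-1, was at 0.772 and 0.684 CPM in the A375 controls, and its copy CTAG1A was at 1.69 and 1.76 CPM. CTAG2, which encodes the related LAGE-1, was at 1.45 and 1.47 CPM in those libraries. These low values rest on few reads, and CTAG1A and CTAG1B share nearly all their sequence.

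Altogether, 22 of the 49 genes stayed at the floor in all 4 CHL1 groups, with at most 3 counts in any library. Of these, 21 were above the floor in all 5 A375 groups. The authors had removed low-expressed genes, so a gene at the floor in every CHL1 group could stay mainly through its A375 counts. This share was therefore largely set by that filter. The exception was SSX2B, which was at the floor in the A375 CDK4/6i samples of 72 hours. The 22 were MAGEA1, MAGEA4, MAGEA11, MAGEB2, MAGEC1, MAGEC2, GAGE1, GAGE2A, GAGE2B, PAGE2, PAGE5, CT45A1, CT45A2, CT45A3, CT45A4, CT45A6, CTAG1A, CTAG1B, CTAG2, SSX2, SSX2B and PRAME. A further 17 genes were above the floor in all 9 groups.

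**Figure D1:**
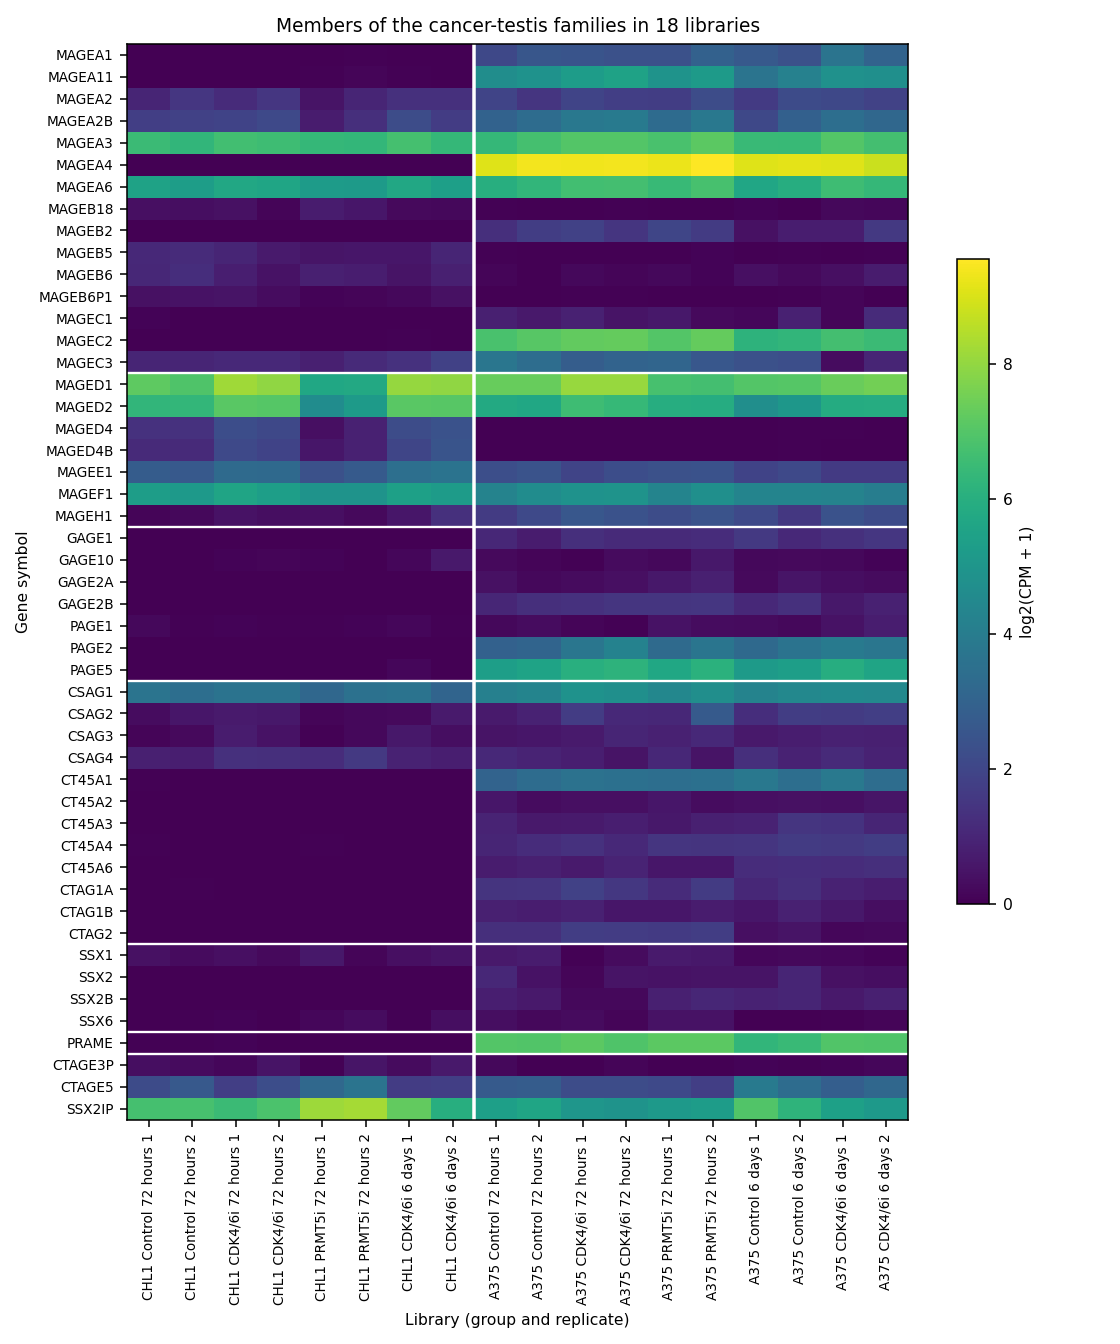
Heat map of log2(CPM + 1) for the 49 genes (rows, grouped by class) in the 18 libraries (columns, grouped by line, treatment and time). Dark cells are low and yellow cells high. The 22 genes at the floor in CHL1 are dark on the left, and MAGEA4 is the brightest row on the A375 side.

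MAGEA3 and MAGEA6 broke this pattern. Both encode partners of TRIM28 that direct it to the energy sensor AMPK. MAGEA3 was at 90.7 and 78.0 CPM in the CHL1 controls, at 80.9 and 107 CPM in the A375 controls of 72 hours, and at 88.9 and 86.1 CPM in those of 6 days. The lines overlapped, with a log2 fold change of −0.15 at 72 hours (SE 0.18, adjusted p = 0.486). Against the 6-day control it was −0.05 (adjusted p = 0.818), and with GC correction −0.58 (adjusted p = 0.00883). At 40.5 CPM per kb it was the most abundant of the 49 genes per kilobase in the CHL1 control. MAGEA6 was at 44.2 and 38.9 CPM in the CHL1 controls and at 62.6 and 76.7 CPM in the A375 controls of 72 hours. It was therefore lower in CHL1, without overlap, by 0.75 on the log2 scale (SE 0.18, adjusted p = 0.00150), and the difference from the 6-day control was smaller (log2 fold change −0.39, adjusted p = 0.062) and, with GC correction, −0.78 (adjusted p = 0.000189).

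MAGEA6 and MAGEA3 bound a stretch of 71 kb in Xq28, chrX:151867214-151938240 (GRCh37), that holds 8 of the 49 genes, namely MAGEA2, MAGEA2B, MAGEA3, MAGEA6, CSAG1, CSAG2, CSAG3 and CSAG4. All 8 were above the floor in all 9 groups. Of the 31 other genes of the germline families (the 49 without the type II MAGE genes and the 3 that share only the letters), 2 were above the floor in all 9 groups (MAGEC3 and SSX1) and 22 were at the floor in every CHL1 group. The stretch was singled out after its values were seen, and several of its genes share reads, so the 8 are not independent. Genes low in both lines had been filtered out, so the counts cover only genes that passed in at least 1 line. Outside it on the same chromosome arm, MAGEA4, MAGEA1 (chrX:152481520-152486116), MAGEA11 (chrX:148769894-148798928) and MAGEC2 (chrX:141290128-141293076) were at the floor in CHL1.

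Within the stretch, CSAG1, which encodes a centrosomal protein, was at 11.8 and 10.0 CPM in the CHL1 controls and at 16.7 and 19.1 CPM in the A375 controls of 72 hours. The log2 fold change was −0.72 (SE 0.21, adjusted p = 0.00721). MAGEA2B, whose protein binds MDM2 and p53, was at 2.45 and 2.59 CPM in the CHL1 controls and at 7.09 and 9.53 CPM in the A375 controls, a log2 fold change of −1.72 (SE 0.36, adjusted p = 0.000431). MAGEA2, CSAG2, CSAG3 and CSAG4 had between 0.104 and 2.90 CPM in the controls of 72 hours. Of these, CSAG3 was lower in CHL1 (log2 fold change −1.69, adjusted p = 0.0241).

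**Figure D2:**
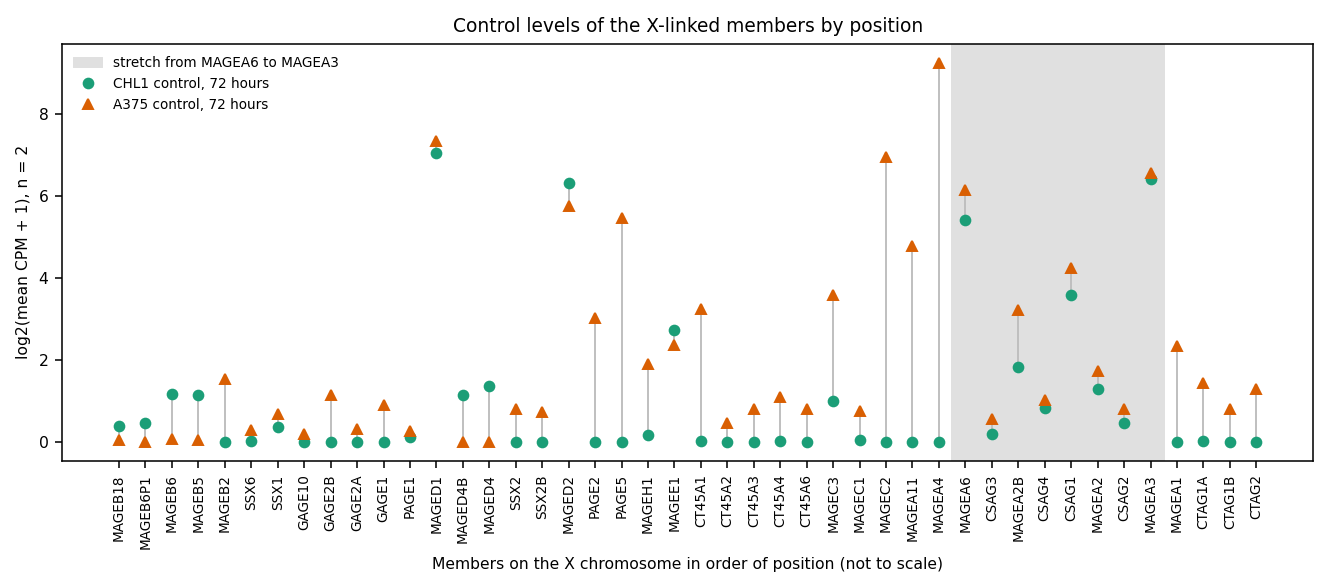
Log2(mean CPM + 1) in the 72-hour controls (y axis) of the 44 X-linked genes in order of position (x axis, not to scale), for CHL1 (circles) and A375 (triangles), with the stretch from MAGEA6 to MAGEA3 shaded. The 8 genes of the stretch lie above 0 in both lines, whereas their neighbours MAGEA4, MAGEA11 and MAGEC2 are high in A375 and at 0 in CHL1.

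Because the germline antigens are known for control at their promoters, the 250 bases before the start of 4 genes are shown. They run 5′ to 3′, from RefSeq on GRCh38.p14, with each CpG dinucleotide in capitals. MAGEA3 was expressed in both lines, MAGEA4 and MAGEC2 were above the floor in A375 and at it in CHL1, and MAGED1 is a type II gene expressed in both.
MAGEA3, chrX:152698544-152698793, plus strand: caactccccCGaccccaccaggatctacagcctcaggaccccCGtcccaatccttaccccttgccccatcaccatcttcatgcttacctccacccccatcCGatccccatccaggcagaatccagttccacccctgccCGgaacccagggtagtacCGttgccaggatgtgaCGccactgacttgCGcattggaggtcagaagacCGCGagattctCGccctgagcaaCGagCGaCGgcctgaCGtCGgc
MAGEA4, chrX:151918038-151918287, plus strand: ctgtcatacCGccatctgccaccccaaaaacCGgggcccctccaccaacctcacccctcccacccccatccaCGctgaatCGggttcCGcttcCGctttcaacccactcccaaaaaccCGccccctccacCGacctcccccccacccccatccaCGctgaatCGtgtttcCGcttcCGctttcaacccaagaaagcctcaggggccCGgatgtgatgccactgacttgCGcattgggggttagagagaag
MAGEC2, chrX:142205291-142205540, minus strand: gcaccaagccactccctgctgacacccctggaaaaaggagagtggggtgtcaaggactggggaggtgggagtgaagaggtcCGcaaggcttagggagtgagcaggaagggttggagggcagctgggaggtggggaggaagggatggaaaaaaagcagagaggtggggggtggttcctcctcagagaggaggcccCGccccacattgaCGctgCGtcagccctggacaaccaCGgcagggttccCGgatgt
MAGED1, chrX:51893373-51893622, plus strand: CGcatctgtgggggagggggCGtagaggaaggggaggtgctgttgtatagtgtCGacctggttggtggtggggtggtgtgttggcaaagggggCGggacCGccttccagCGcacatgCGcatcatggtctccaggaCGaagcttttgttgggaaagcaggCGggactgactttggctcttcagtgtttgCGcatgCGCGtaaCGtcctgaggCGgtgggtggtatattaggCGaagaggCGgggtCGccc

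The MAGEA3 sequence holds 15 CpG dinucleotides and was identical over all 250 positions to that of MAGEA6 (chrX:152769690-152769939, minus strand). The MAGEA4 sequence shown, of the last of 5 start sites in the table, holds 14, and those of the other start sites hold 6, 7, 11 and 12. MAGEC2 holds 6, and MAGED1 holds 17 at the start site shown and 6 at its other. Over all 35116 entries of the table the median was 11. A RefSeq entry was found for 34 of the 49 genes. Taking the first entry of each, the 14 type I MAGE genes had a median of 9.5 (range 3 to 18) and the 6 type II genes a median of 12 (range 6 to 22). The letters CCGGAA, the core of sites for Ets factors, were searched on both strands and do not overlap another motif searched. They occur in the upstream bases of MAGEA3 and MAGEA6 and in 14.5% of all entries. Among the first entries, 3 of 14 type I and 1 of 6 type II genes hold them, and no MAGEA4, MAGEC2 or MAGED1 entry does. No methylation was measured in this series.

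Fewer members were higher in CHL1. MAGED4 and MAGED4B, type II genes whose longest transcripts share 100% of their sequence, were at 1.59 and 1.56 CPM and at 1.21 and 1.21 CPM in the CHL1 controls and had no count in the A375 controls of 72 hours. The bounds were at least 10.8-fold and 8.29-fold. MAGEB5 (1.14 and 1.28 CPM) and MAGEB6 (1.11 and 1.38 CPM), neighbours on the short arm of the X chromosome, were at least 8.29-fold and 8.54-fold higher in CHL1, and MAGEB18 and MAGEB6P1, from the same neighbourhood, had smaller bounds of 2.04-fold and 2.52-fold. MAGEF1, a partner of the SMC5/6-complex ligase NSMCE1, was higher at 38.4 and 35.0 CPM against 18.3 and 23.8 CPM (log2 fold change 0.80, SE 0.19, adjusted p = 0.00138). MAGED2, a gene mutated in transient antenatal Bartter syndrome, was at 77.2 and 79.9 CPM against 54.3 and 50.9 CPM (log2 fold change 0.58, SE 0.18, adjusted p = 0.0101).

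MAGEH1 and MAGEC3 were lower in CHL1 but not absent. MAGEH1, a small type II protein, was at 0.104 and 0.142 CPM in the CHL1 controls and at 2.17 and 3.27 CPM in the A375 controls of 72 hours (log2 fold change −4.42, SE 0.55). MAGEC3, a type I gene, was at 0.967 and 0.993 CPM against 12.4 and 9.72 CPM (log2 fold change −3.49, SE 0.41). MAGED1, which encodes an adaptor of the p75 neurotrophin receptor, was at 144 and 119 CPM against 162 and 160 CPM, and its log2 fold change of −0.29 (SE 0.15) did not pass the test (adjusted p = 0.103), whereas with GC correction it did (−0.36, adjusted p = 0.0136).

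Treatment with palbociclib did not bring the absent antigens above the floor at 72 hours. Of the 24 genes at the floor in the CHL1 control, 0 were above it after 72 hours of CDK4/6i, with at most 3 counts in any library. After 6 days, 2 were, GAGE10 and SSX6. GAGE10, one of the GAGE antigens recognised on melanoma cells, had 3 and 12 counts in the 6-day libraries and 0 in the controls, a rise of at least 3.27-fold (adjusted p = 0.0343). At this depth a level below the floor could not be distinguished from none.

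Among the genes that CHL1 expressed, those called after palbociclib were mostly type II MAGE genes. In CHL1 at 72 hours, 3 of the 49 genes rose (2.27% of all genes did) and 0 fell (2.72% of all genes). All 3 were type II genes, MAGED1, MAGED2 and MAGED4B. At an unadjusted p below 0.05 there were 8 of the 49 and 4161 of all 20705 genes. At 6 days, 8 rose (8.83% of all genes) and 0 fell (7.80%), among them 6 of the 7 type II genes, MAGEC3 and GAGE10. Medians over the 49 genes were 0.00 at both times because the genes at the floor have no fold change. Over the 25 genes above the floor in a group of the 72-hour comparison the median log2 fold change was 0.24, and over the 27 of the 6-day comparison 0.25, against 0.00 and 0.03 for all genes. DESeq2 called 0 falls at 72 hours and 1 at 6 days, CTAGE5 (−0.93), which shares only letters with the families.

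MAGED1 was at 144 and 119 CPM in the CHL1 controls, 292 and 250 CPM after 72 hours and 262 and 249 CPM after 6 days. Every treated library lay above every control, and the log2 fold change was 1.04 (SE 0.16, adjusted p = 0.00514) at 72 hours and 0.97 (SE 0.16, adjusted p = 0.00270) at 6 days. MAGED2 was at 77.2 and 79.9 CPM in the controls, 137 and 130 CPM after 72 hours and 137 and 133 CPM after 6 days. It also rose without overlap, by 0.76 (SE 0.19, adjusted p = 0.0385) and 0.80 (SE 0.19, adjusted p = 0.0137) on the log2 scale.

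MAGED4B was at 1.21 and 1.21 CPM in the CHL1 controls, 3.36 and 2.80 CPM after 72 hours and 2.97 and 4.63 CPM after 6 days, with log2 fold changes of 1.35 (SE 0.31, adjusted p = 0.0332) and 1.65 (SE 0.31, adjusted p = 0.00535). Its near-identical neighbour MAGED4 rose at 6 days (log2 fold change 1.34, adjusted p = 0.0173) and had a log2 fold change of 1.16 at 72 hours (adjusted p = 0.0666). The reads of the 2 genes cannot be assigned with certainty, and they are counted here as given. MAGEE1, a partner of the dystrobrevin complex, was at 5.80 and 5.42 CPM in the controls and at 10.2 and 11.3 CPM after 6 days (log2 fold change 0.95, adjusted p = 0.01). MAGEH1 rose from 0.104 and 0.142 CPM to 0.495 and 1.48 CPM at 6 days (log2 fold change 2.93, SE 0.65, adjusted p = 0.0109), a change that rests on low counts. MAGEF1 was the type II gene not called, with a log2 fold change of 0.13 (adjusted p = 0.641).

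The number of calls depended on single libraries. At 72 hours, leaving out any of the 4 libraries left a count of 0 or 1 in place of 3, while the share called of all genes went from 4.98% to between 0.497 and 0.657%. At 6 days the count of 8 became 0 without the second control, 1 without the first control and 4 without the second treated library. The share of all genes fell with it, from 16.6% to 3.05%, 5.40% and 11.1%, so calls were lost across the table and not among the members alone. The log2 fold change of MAGED1 at 72 hours stayed between 0.91 and 1.18 in these fits, and that of MAGED2 between 0.71 and 0.80. MAGED1 was called in 2 of the 4, losing its call without the second control (0.91) or the first treated library (0.91), and MAGED2 in 0 of the 4. At 6 days MAGED1 lost its call without the second control (0.84), and MAGED2 kept its call only without the second treated library (0.83). No member was called between the 6-day and 72-hour CHL1 samples (0.0145% of all genes rose and 0 fell). In that comparison 3 of the 49 and 1634 of all 20705 genes had an unadjusted p below 0.05. DESeq2 called 0 of the 49 (0.395% of all genes).

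In A375, 3 of the 49 genes rose (6.22% of all genes) and 2 fell (7.11%) after 72 hours of palbociclib. MAGED1 was at 162 and 160 CPM in the controls and 267 and 267 CPM after treatment, and rose by 0.67 on the log2 scale (SE 0.17, adjusted p = 0.0144). MAGED2 was at 54.3 and 50.9 CPM and then at 94.5 and 83.8 CPM, and rose by 0.70 (SE 0.18, adjusted p = 0.0175). For both genes the treated libraries lay above the controls.

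PAGE2, a GAGE-related antigen, was at 6.81 and 7.53 CPM in the A375 controls and 12.6 and 17.9 CPM after 72 hours (log2 fold change 1.03, SE 0.26, adjusted p = 0.0142). SSX1 and SSX2B, which belong to the family fused to SS18 in synovial sarcoma, fell from 0.579 and 0.635 CPM to 0.053 and 0.200 CPM, and from 0.724 and 0.586 CPM to 0.158 and 0.150 CPM. Their adjusted p were 0.0447 and 0.0262, at counts near the floor. Leaving out any of the 4 libraries left 0 or 1 call, with 3.99 to 5.03% of all genes called in place of 13.3%. With only the 6 A375 libraries of 72 hours in the fit, 14 of the 49 were called (31.0% of all genes), and with the replicate number of the labels added as a block 19 were, 13 higher (20.6% of all genes) and 6 lower (21.7%). MAGED1, MAGED2 and PAGE2 were among the 13 and SSX1 and SSX2B among the 6. The difference between the lines in the 72-hour palbociclib response was called for 0 of the 49 genes (0.642% of all genes). DESeq2 called 0 (2.44%). At an unadjusted p below 0.05 there were 2 of the 49 and 2073 of all 20705 genes. For MAGED1 this difference, CHL1 minus A375, was 0.31 (SE 0.21, adjusted p = 0.721), and for MAGED2 it was 0.00 (SE 0.25).

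**Figure D3:**
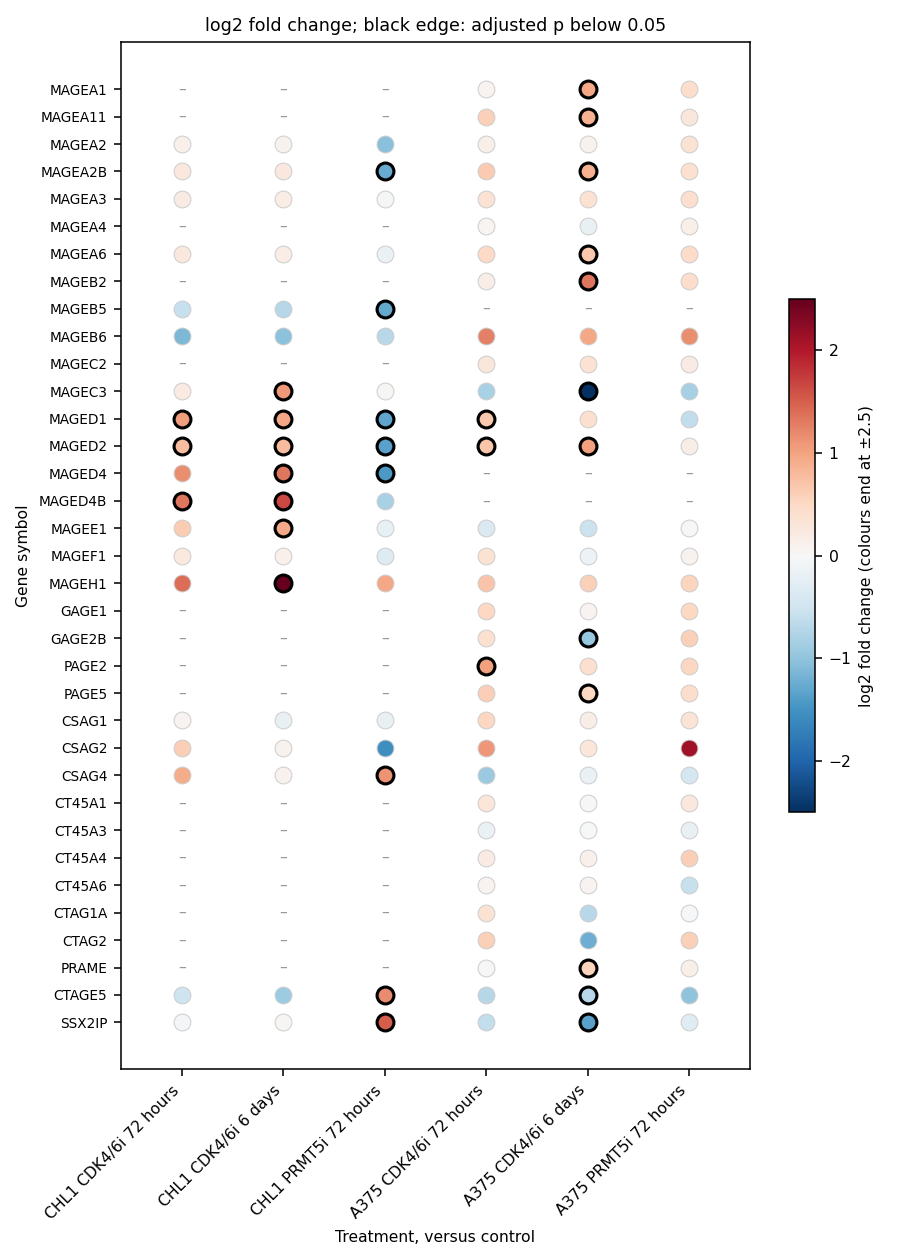
Log2 fold change against the DMSO control (colour, red higher and blue lower, ending at 2.5 in size) of the members with a mean of at least 1 CPM in a group (rows) in the 6 treatment comparisons (columns). Points outlined in black passed the test, and a dash marks a gene with at most 3 counts in every library of that line. The outlined points of the MAGED genes are red in the CDK4/6i columns of CHL1 and blue in its PRMT5i column.

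After 6 days of palbociclib, 9 of the 49 genes rose in A375 (21.8% of all genes) and 4 fell (21.3%). Here the control libraries stood apart in GC content, and the balance of rises and falls turned with the correction and with the control used. With GC correction 2 rose (20.4% of all genes) and 8 fell (18%), and against the A375 control of 72 hours 3 rose (16.2%) and 5 fell (15.0%). Of the type I MAGE genes, 5 of 15 rose and 1 fell. Of the 7 type II genes only MAGED2 was called, and their median log2 fold change was −0.14. MAGED1 was at 128 and 130 CPM in the 6-day controls and 165 and 182 CPM after treatment, with a log2 fold change of 0.42 (SE 0.17, adjusted p = 0.0532), with GC correction 0.07 (adjusted p = 0.639). MAGED2 was at 25.1 and 32.5 CPM in the 6-day controls and 58.0 and 59.1 CPM after treatment, and rose without overlap by 1.02 (SE 0.18, adjusted p = 0.000496). With GC correction it rose by 0.60 (adjusted p = 0.00155). Against the A375 control of 72 hours, at 54.3 and 50.9 CPM, its log2 fold change was 0.11.

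MAGEA11 was at 11.7 and 17.2 CPM in the 6-day controls and 27.7 and 25.9 CPM after treatment (log2 fold change 0.89, SE 0.22, adjusted p = 0.00419). It kept its call with GC correction (0.51, adjusted p = 0.0173) but had a log2 fold change of −0.02 against the control of 72 hours. MAGEA1 was at 5.38 and 4.23 CPM and then at 11.7 and 7.19 CPM. Its log2 fold change was 0.98 (SE 0.30, adjusted p = 0.0174), with GC correction 0.66 (adjusted p = 0.104), and against the control of 72 hours 1.18 (adjusted p = 0.00918).

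PRAME was at 76.4 and 87.0 CPM in the 6-day controls and 124 and 121 CPM after treatment, a log2 fold change of 0.57 (SE 0.17, adjusted p = 0.0138). The A375 libraries of 72 hours ranged from 121 to 142 CPM. With GC correction the log2 fold change was 0.14 (adjusted p = 0.346), and against the control of 72 hours −0.09. MAGEA6 was at 48.9 and 60.3 CPM and then at 94.3 and 81.7 CPM (log2 fold change 0.68, SE 0.19, adjusted p = 0.00951). With GC correction its value was 0.32 (adjusted p = 0.0787). MAGEA2B, MAGEB2, PAGE1 and PAGE5 were also called higher, with log2 fold changes of 0.89, 1.33, 1.53 and 0.52, and none of the 4 was called with GC correction. For MAGEB2 the groups overlapped.

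MAGEC3 fell without overlap, from 4.18 and 3.85 CPM in the 6-day controls to 0.246 and 0.989 CPM, by 2.69 on the log2 scale (SE 0.42, adjusted p = 0.000191). Unlike most of the other calls, it was as large with GC correction (−3.06) and against the control of 72 hours (−4.19), and in the fits without a library it ranged from −4.00 to −2.03. In CHL1 the same gene had gone from 0.967 and 0.993 CPM to 1.56 and 2.62 CPM at 6 days. GAGE2B, with 1.14 and 1.5 CPM against 0.519 and 0.828 CPM, fell by 0.97, and with GC correction by 1.33. The other 2 of the 4 falls were SSX2IP (−1.36, with GC correction −0.50, adjusted p = 0.00842) and CTAGE5 (−0.70, with GC correction 0.07, adjusted p = 0.813), which share only letters with the families. Without them the split was 9 higher and 2 lower. GC correction also called 5 genes lower that were not called without it, among them MAGEA4 (−0.54, adjusted p = 0.0158) and CTAG2 (−1.69). The count of 13 became 6 without the first treated library (29.4% of all genes, against 43.1% with it) and 10 without the second (31.0%) or without the first control (34.3%). The change from 72 hours to 6 days in the A375 response was called for 0 of the 49 genes (1.08% of all genes). In that comparison 8 of the 49 and 4118 of all 20705 genes had an unadjusted p below 0.05. DESeq2 called MAGEC3 (−2.0), with 8.29% of all genes called.

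The 2 most abundant type II MAGE genes moved the other way under the PRMT5 inhibitor in CHL1. Of the 49 genes, 3 rose (26.4% of all genes) and 6 fell (27.6%), and with GC correction 3 rose (14.5%) and 4 fell (16.7%). MAGED1 was at 144 and 119 CPM in the controls and 51.4 and 52.8 CPM after PRMT5i. All treated libraries lay below all controls, and it fell by 1.32 on the log2 scale (SE 0.16, adjusted p = 0.000114). MAGED2 was at 77.2 and 79.9 CPM and then at 24.2 and 36.3 CPM, and fell by 1.36 (SE 0.19, adjusted p = 0.000184). These libraries are those with the lowest GC-rich share. With GC correction the falls were smaller, 0.91 (adjusted p = 0.000559) for MAGED1 and 0.75 (adjusted p = 0.00165) for MAGED2. Both were called without each of the 4 libraries in turn.

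The remaining calls in CHL1 PRMT5i were less stable. MAGED4 went from 1.59 and 1.56 CPM to 0.302 and 0.860 CPM (log2 fold change −1.43, adjusted p = 0.00887), and with GC correction its value was −0.53 (adjusted p = 0.272). MAGEA2B went from 2.45 and 2.59 CPM to 0.637 and 1.43 CPM (log2 fold change −1.27, adjusted p = 0.0125), and with GC correction −0.82 (adjusted p = 0.100). MAGEB5 fell by 1.29 and, with GC correction, by 1.53. MAGEB6P1 fell from 0.345 and 0.390 CPM to the floor, at least 3.53-fold, and kept its call with GC correction (adjusted p = 0.0285). CSAG4, a non-coding gene of the Xq28 stretch, rose from 0.794 and 0.745 CPM to 1.34 and 1.97 CPM (log2 fold change 1.12, adjusted p = 0.0103) and kept its call with GC correction (1.39).

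MAGEA3, the most abundant antigen transcript of CHL1, was at 82.2 and 79.5 CPM after PRMT5i against 90.7 and 78.0 CPM in the controls. The groups overlapped, and the log2 fold change was −0.04 (SE 0.17, adjusted p = 0.879). With GC correction it was 0.66 (adjusted p = 0.00818), so whether this gene passed the test depended on the correction. MAGEE1 likewise passed only with it (0.49, adjusted p = 0.0465, against −0.20 without). SSX2IP rose from 105 and 108 CPM to 285 and 309 CPM (log2 fold change 1.51, adjusted p = 0.00172) and CTAGE5 from 3.56 and 5.35 CPM to 8.28 and 11.7 CPM (1.19, adjusted p = 0.00379). Both share only letters with the antigen families, and with GC correction neither was called (0.46 and 0.19). Of the 24 genes at the floor in the CHL1 control, 1 was above it after PRMT5i, the pseudogene SSX6, with 4 and 7 counts. The count of 9 became 5 without the second control (42.7% of all genes, against 54.0% with it) or without the first treated library (47.8%).

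In A375, PRMT5i changed 0 of the 49 genes by edgeR (0.874% of all genes rose and 1.74% fell). This count rested on the fit. With only the 6 A375 libraries of 72 hours 6 of the 49 were called (15.8% of all genes), and with the replicate number added as a block 12 were, 8 higher (14.1% of all genes) and 4 lower (15.4%). At an unadjusted p below 0.05 there were 8 of the 49 and 3332 of all 20705 genes. DESeq2 called 3 (5.76% of all genes), CSAG2, CTAGE5 and MAGED1. MAGED1 was at 162 and 160 CPM in the controls and 109 and 103 CPM after PRMT5i, without overlap. Its log2 fold change was −0.62 (SE 0.17, adjusted p = 0.0618 by edgeR, 0.00804 by DESeq2), and with GC correction −0.65 (adjusted p = 0.00688). With the block it was −0.62 (adjusted p = 1.14e-09). MAGED2 was at 54.3 and 50.9 CPM and then at 60.8 and 58.7 CPM (log2 fold change 0.17, adjusted p = 0.705). MAGEA3 (0.42, SE 0.19, adjusted p = 0.301) and MAGEA6 (0.47, SE 0.19, adjusted p = 0.225) had treated libraries above both controls without passing the test, and both passed with the block (0.42, adjusted p = 2.07e-05, and 0.47, adjusted p = 1.55e-06). CSAG2, also known as the taxol-resistance gene TRAG3, was at 1.10 and 5.59 CPM after PRMT5i against 0.627 and 0.88 CPM (adjusted p = 0.0753, with the block 1.68e-07).

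The response to PRMT5i differed between the lines, CHL1 minus A375, for 8 of the 49 genes (40.9% of all genes), 3 higher and 5 lower. With GC correction it differed for 4 (23.7%). MAGED2 had a difference of −1.56 (SE 0.26, adjusted p = 0.000315), which was −0.93 with GC correction (adjusted p = 0.00179) and was called in all 8 fits without a library. MAGED1 had a difference of −0.73 (SE 0.21, adjusted p = 0.0105), and with GC correction −0.29 (adjusted p = 0.234). Without the first CHL1 control it was −0.63 (adjusted p = 0.0555). In both lines MAGED1 was lower after PRMT5i than in the controls. The count of 8 became 4 without the second A375 PRMT5i library (33.5% of all genes) and 5 without the first A375 control (33.7%) or the first CHL1 PRMT5i library (33.5%).

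**Figure D4:**
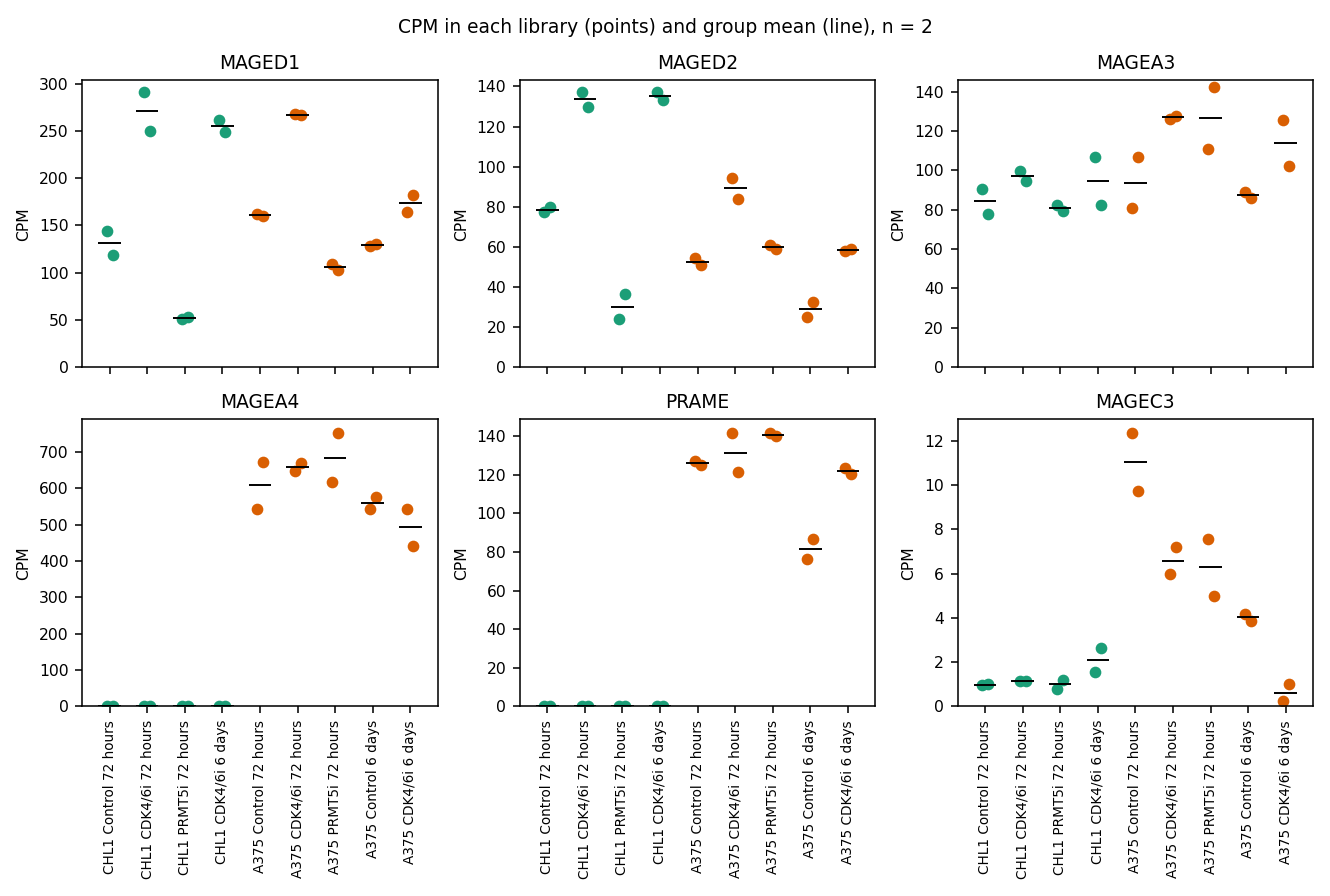
CPM in each library (points) and group mean (horizontal lines) for MAGED1, MAGED2, MAGEA3, MAGEA4, PRAME and MAGEC3 over the 9 groups. MAGED1 and MAGED2 lie above their controls after CDK4/6i and, in CHL1, below them after PRMT5i, while MAGEA4 and PRAME are at the floor in every CHL1 group.

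**Figure D5:**
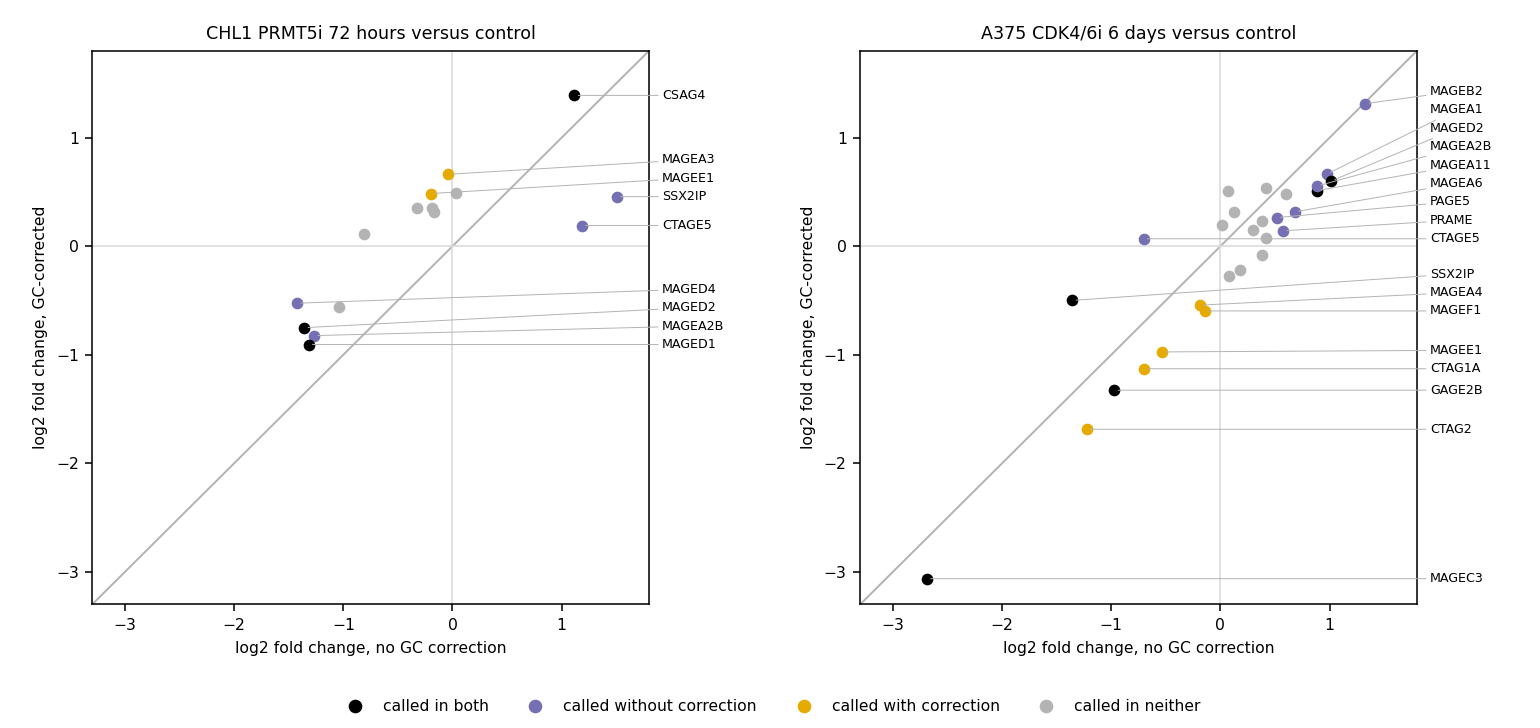
Log2 fold changes without (x axis) and with (y axis) GC correction for members with a mean of at least 1 CPM in the line, in the 2 comparisons whose libraries stood apart in GC content. Points on the diagonal are unmoved by the correction. MAGED1, MAGED2 and CSAG4 keep their calls in CHL1, and MAGEC3, MAGED2, MAGEA11, GAGE2B and SSX2IP in A375.

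Several members are near-identical copies, and the counting assigned only reads that fit 1 place, so their levels are uncertain. Of the 150-base windows of the longest transcript, 100% of those of CSAG2, CSAG3, MAGEA2B, CTAG1B, MAGED4 and MAGED4B occur in another gene, as do 97.8% for MAGEA2 and 98.8% for CTAG1A. The share was 91.6% for SSX2 and 91.3% for SSX2B, 93.6 to 100% for the CT45A genes, 82.8% for GAGE2B and 52.6% for GAGE2A. It was 25.9% for MAGEA3 and 32.6% for MAGEA6. No window of MAGEA4, MAGEC2 or PRAME occurs in another gene. The SSX genes never reached 1 CPM in 2 libraries, with SSX2 at 1.11 and 0.391 CPM in the A375 controls of 72 hours and 0 in CHL1. GAGE1 was at 1.11 and 0.635 CPM and GAGE2A at 0.338 and 0.147 CPM in the same controls. CSAG2 and CSAG3 were annotated as antisense genes. They lie beside MAGEA2 and MAGEA2B, on the opposite strand and without overlap in the annotation used here. The strand setting of the counting is not given in the sources used here.

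Genes of the machinery that silences antigen promoters were examined as lists chosen by function. Their counts are read against the shares of all genes given above for each comparison, and their GC-corrected and blocked counts were added after seeing the data. Of 11 genes of DNA methylation and its removal, 6 were higher (29.3% of all genes were) and 2 lower (29.6%) in CHL1 than in A375 at 72 hours. TDG, a glycosylase of active demethylation, was higher by 1.26 on the log2 scale (SE 0.18), and UHRF1, which guides maintenance methylation, was lower by 0.85 (SE 0.20). The median of the list was 0.55, against −0.02 for all genes. Against the A375 control of 6 days the median was 0.12, against −0.06 for all genes. There 5 were higher (29.5% of all genes) and 1 lower (31.5%), HELLS with −0.49, so UHRF1 was not called lower. With GC correction 5 were higher (35.0%) and 2 lower (32.1%) against that control. After CDK4/6i, 1 of the 11 fell in CHL1 at 72 hours (2.72% of all genes; UHRF1, −0.86) and 6 at 6 days (7.80%), with DNMT3B, a de novo methyltransferase, falling most (−1.02). With GC correction 5 fell in CHL1 at 72 hours (6.69%) and 7 at 6 days (13.5%). In A375, 4 fell at 72 hours (7.11%) and 5 at 6 days (21.3%), when DNMT3A rose (0.83). HELLS, a remodeller needed for methylation, fell most at both times (−1.70 and −1.92). At 72 hours 7 fell in A375 with GC correction (12.5%) and 8 with the block (21.7%). With GC correction 8 fell and 2 rose at 6 days, HELLS with −1.37 and DNMT3A with 0.40. After PRMT5i, 5 rose (26.4% of all genes) and 5 fell (27.6%) in CHL1, DNMT1 by 1.21. With GC correction 2 rose (14.5%) and 1 fell (16.7%), DNMT1 with −0.42 (adjusted p = 0.0211). In A375 2 fell (1.74%), DNMT3B by 1.06, and 6 with the block (15.4%).

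Of 10 genes of histone H3 lysine 9 methylation and silencing through TRIM28, 0 were called in CHL1 after 72 hours of CDK4/6i (4.98% of all genes). At 6 days 1 fell (7.80% of all genes), EHMT1, a lysine methyltransferase (−0.64). With GC correction 2 fell in CHL1 at 72 hours (6.69%) and 3 at 6 days (13.5%). In A375, 3 fell at 72 hours (7.11% of all genes), SUV39H2, a lysine methyltransferase, the most (−0.83). At that time 5 fell with GC correction (12.5%) and 8 with the block (21.7%). At 6 days 6 fell (21.3%) and 1 rose (21.8%), EHMT2 (0.61). With GC correction 4 fell and 0 rose at 6 days, EHMT2 with 0.09. After PRMT5i, 4 rose (26.4% of all genes) and 3 fell (27.6%) in CHL1, with ATF7IP, a cofactor of SETDB1, at 1.13. With GC correction 3 rose (14.5%) and 1 fell (16.7%), ATF7IP with 0.37. In A375 0 were called (2.61% of all genes), and 3 fell with the block (15.4%). TRIM28, the partner of MAGEA3, MAGEA6 and MAGEC2, fell in CHL1 after PRMT5i by 1.47 (SE 0.22), with GC correction by 0.34 (adjusted p = 0.0635), and was 1.37 lower in CHL1 than in A375 controls of 72 hours. Of 8 genes of histone deacetylase, polycomb and CTCF-type regulation, 7 were analysed. EZH2, the polycomb methyltransferase, fell after CDK4/6i in CHL1 (−0.96 at 72 hours, −1.26 at 6 days) and in A375 (−1.94 at 72 hours, −1.66 at 6 days and −1.24 then with GC correction). After PRMT5i it fell in A375 (−0.84) and rose in CHL1, from 173 and 179 CPM to 244 and 237 CPM (log2 fold change 0.47, adjusted p = 0.0156), a rise that became −0.22 with GC correction (adjusted p = 0.142). KDM1A, a lysine demethylase, was at 1.62 and 2.54 CPM in the A375 controls of 6 days and at 0 and 0.080 CPM after palbociclib (log2 fold change −5.53, SE 0.61, adjusted p = 1.36e-05, and with GC correction −5.51). The treated group was at the floor, which was 0.080 CPM in its second library, so the size of this fall is not measured.

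Of 10 ubiquitin ligase partners of MAGE proteins and PRAME, 0 were called after CDK4/6i in CHL1 at either time or in A375 at 72 hours. Of all genes, 4.98% and 16.6% were called in CHL1 at 72 hours and 6 days, and 13.3% in A375 at 72 hours. At 6 days in A375, 3 rose (21.8% of all genes), TRIM31 the most (2.12), and 1 fell (21.3%), PJA2, a ligase of the praja family (−0.91). With GC correction 3 rose and 0 fell, PJA2 with −0.12. After PRMT5i, 4 rose (26.4% of all genes) and 4 fell (27.6%) in CHL1, PJA2 by a rise of 1.14. With GC correction 1 rose (14.5%) and 2 fell (16.7%), PJA2 with 0.18. In A375 0 were called after PRMT5i (2.61% of all genes), and 1 rose with the block (14.1%).

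By level over the 9 group means of log2(CPM + 1), the genes most like MAGEA4 among all with a mean of at least 1 CPM were LINC01029 (Pearson r = 0.9993), IGF2BP1 (0.9990), an RNA-binding protein, and PRAME (0.9986). Those most like PRAME were LINC01029 (0.9995), CACNG8 (0.9995), a calcium channel subunit, and CCBE1 (0.9994), a lymphangiogenesis factor. With 9 points that fall into the 2 lines, such values describe any gene present in A375 and absent in CHL1.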

How the data were processed

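The authors deposited 1 table of whole-number read counts for 20705 gene symbols. The labels and methods give TruSeq poly-A libraries, paired-end sequencing, HISAT2 2.0.4 alignment to GRCh37, HTSeq counting with default settings (0.11.2 per the submitters' processing notes), which discards reads that map to several places, and removal of low-expressed genes with edgeR. Although the table is called normalised, its values are whole numbers and library totals differ, so they were used as raw counts.

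The 49 genes and all lists were chosen with earlier results of these data known. Counts were tested in R 4.3.3 with edgeR 4.0.16 (TMM scaling, quasi-likelihood test, prior count 0.125) on all genes, in 1 fit per line (8 CHL1 and 10 A375 libraries) and in 1 fit of all 18 libraries for differences between lines. P-values were adjusted by Benjamini-Hochberg over 20705 genes. CPM uses TMM-adjusted totals. The floor and the intervals implied by SE cover counting and library error only. Without molecular identifiers, reads are no independent molecules. GC content came from GENCODE release 44 on GRCh37, matched for 15208 symbols directly and 1152 by an older symbol, including 49 of 49 members, and was corrected with a loess curve per library (span 0.4). Promoters came from RefSeq.

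Named genes were those called in a treatment comparison with a mean of at least 1 CPM in the line, those that averaged 5 CPM or more in a group, and near-identical pairs. From the lists, some of the largest called rises and falls are named, not those of every comparison. A few others are named because a count of 5 or fewer rested on them or because their values were seen. The alternatives were DESeq2 1.42.0, median-of-ratios scaling, a 1 CPM filter, GC correction, a likelihood ratio test, other sets of libraries or controls, a replicate block, a threshold of 0.01 and leaving out each library. In a simulation of the CHL1 72-hour CDK4/6i comparison with all 20705 genes, 62 of 100 genes changed 2-fold and 98 of 100 changed 4-fold were recovered, and 12 unchanged genes were called. In that of the A375 72-hour CDK4/6i comparison, 48 and 95 of 100 were recovered and 12 unchanged genes were called. In both, the changed genes were drawn only from those with at least 1 CPM in the control. Over the libraries of a line, 15 of the 49 genes averaged 1 CPM or more in CHL1 and 28 in A375. The recovery does not apply to members below that level.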

Additional observations from a re-analysis of the deposited data

Results flagged for a closer look

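The results below stand out because the response to PRMT5i, tested directly as a difference between the 2 lines (CHL1 minus A375, edgeR), passed the threshold. It passed for 8 of the 49 genes and for 40.9% of all genes. They are given as log2 values without an explanation. Lower in CHL1 were CSAG2 (−3.69, adjusted p = 0.0121), MAGEA2B (−1.71, adjusted p = 0.0139), MAGED2 (−1.56, adjusted p = 0.000315), MAGED1 (−0.73, adjusted p = 0.0105) and MAGEA6 (−0.67, adjusted p = 0.0391). Higher in CHL1 were CTAGE5 (2.16, adjusted p = 0.000876), SSX2IP (1.79, adjusted p = 0.00270) and CSAG4 (1.53, adjusted p = 0.0489). The CHL1 PRMT5i libraries stood apart in GC content. With GC correction, MAGED2 (−0.93), CSAG2 (−3.55), CSAG4 (1.82) and CTAGE5 (1.10) were still called, and MAGED1 (−0.29), MAGEA2B (−1.23), MAGEA6 (−0.16) and SSX2IP (0.67) were not. CSAG2 shares all of its transcript windows with CSAG3, and its A375 PRMT5i libraries were at 1.10 and 5.59 CPM.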

How the results depend on the processing

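With 2 libraries a group, calls near the threshold depended on the fit. Of 38 called member results in the 6 treatment comparisons, 276 alternative values other than fits without a library kept direction and call, 48 lost the call and 5 reversed. In the fits without a library 71 kept the call and 81 lost it. The reversals were all in A375 at 6 days: CTAGE5 became 0.0688 with GC correction, and against the control of 72 hours CTAGE5 became 0.28, MAGEA11 −0.0194, MAGEB2 −0.54 and PRAME −0.0921. The cause was not tested.

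Counts of members called changed by more than 1.5 times as follows. Percentages are the share called of all genes in the same fit. GC correction gave 5 (13.4%) in CHL1 at 72 hours of CDK4/6i (3 without), 9 (24.4%) in A375 at 72 hours (5 without), 2 (8.45%) in A375 PRMT5i (0 without), 1 (2.90%) for the line difference in CDK4/6i (0 without) and 4 (23.7%) for that in PRMT5i (8 without). The likelihood ratio test gave 5 (9.52%) in CHL1 at 72 hours and 3 (5.10%) in A375 PRMT5i, and DESeq2 gave 3 (5.76%) in A375 PRMT5i and 1 (8.29%) for the change of the A375 response with time. Fits of only the compared groups gave 8 (20.3%) in CHL1 at 72 hours, and 16 (33.5%), 5 (28.3%) and 2 (8.99%) in A375 at 72 hours, at 6 days and with PRMT5i. Fits of only the A375 libraries of 72 hours, chosen after seeing the data, gave 14 (31.0%) and 6 (15.8%) for CDK4/6i and PRMT5i. The 72-hour control gave 8 (31.2%) in A375 at 6 days (13 with its own). A threshold of 0.01 left 1, 2 and 5 in CHL1 (72 hours, 6 days and PRMT5i) and 0 and 5 in A375 (72 hours and 6 days). No share of all genes is given for that threshold, so these counts cannot be set against the whole table.

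A replicate block on the number in the labels gave 2 (3.84%), 8 (15.3%) and 10 (53.9%) calls in CHL1 (72 hours, 6 days and PRMT5i), 19 (42.3%) in A375 at 72 hours and 12 (29.5%) with PRMT5i. With block and GC correction the counts were 5 (14.7%) in CHL1 at 72 hours, 20 (46.6%) in A375 at 72 hours and 11 (33.6%) with PRMT5i. Correlations of same-numbered libraries' deviations ran from −0.34 to 0.45 in CHL1 and from 0.22 to 0.48 in A375. All 3 correlations in A375 exceeded 0.1, and 4 of the 6 in CHL1 did not. The labels do not say what a shared number marks, and with 2 libraries a group the pairing in A375 is a hint from the data.

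Leaving out a library in turn gave 0 to 1 calls for CHL1 CDK4/6i at 72 hours, 0 to 8 at 6 days and 5 to 9 for PRMT5i. In A375 the counts were 0 to 1, 6 to 13 and 0 to 1. They were 35 to 36 and 35 to 41 for the line comparisons (72 hours and 6 days), 4 to 9 for the PRMT5i line difference, 0 to 0 for that in CDK4/6i, 0 to 0 for CHL1 6 days against 72 hours, and 0 to 5 for the change of the A375 response with time. Depth limits the members near the floor of 3 counts.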

Other observations

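Other cancer-testis genes, outside the families above, were examined as a list. Of 57 listed, 24 were analysed, and in the controls of 72 hours 6 were higher (29.3% of all genes were) and 11 lower (29.6%) in CHL1. IL13RA2, a decoy receptor for interleukin 13, was at 138 and 171 CPM in the A375 controls of 72 hours and had no count in the CHL1 controls, a difference of at least 1470-fold. IGSF11, an adhesion molecule, went the other way, at 25.0 and 25.8 CPM in CHL1 and 0.627 and 0.489 CPM in A375 (log2 fold change 5.49, SE 0.45, adjusted p = 4.98e-09). TEX15, needed for meiotic recombination, was at 76.0 and 81.5 CPM in CHL1 and at 4.15 and 5.82 CPM in A375. Against the A375 control of 6 days, 3 of the 24 were higher (29.5% of all genes) and 13 lower (31.5%) in CHL1. The largest called rise there was that of TEX15 (log2 fold change 3.53, SE 0.27), so the value of 5.49 for IGSF11 was not reached.

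TDRD6, a tudor protein of the germ cell chromatoid body, rose with palbociclib in A375 at 72 hours, from 0.434 and 0.293 CPM to 2.91 and 3.25 CPM (log2 fold change 3.01, SE 0.37, adjusted p = 8.95e-05). It rose in CHL1 at 6 days, from 0.967 and 1.45 CPM to 6.06 and 5.63 CPM (2.28, SE 0.34, adjusted p = 0.00160). In A375 it was already at 7.90 and 6.01 CPM in the controls of 6 days and was at 9.54 and 11.7 CPM after treatment. In this list 1 gene rose (2.27% of all genes) and 0 fell (2.72%) in CHL1 at 72 hours, and 3 rose (8.83%) and 1 fell (7.80%) at 6 days. The largest called rise of the list in CHL1 was that of MORC1 after each treatment. Its log2 fold change was 2.90 (adjusted p = 0.0382) after 72 hours of CDK4/6i, 2.91 (0.0176) after 6 days and 2.49 (0.0128) after PRMT5i. With PRMT5i 6 rose (26.4%) and 0 fell (27.6%) in CHL1, against 3 (14.5%) and 1 (16.7%) with GC correction. In A375 2 rose (6.22%) and 1 fell (7.11%) at 72 hours, 3 rose (21.8%) and 4 fell (21.3%) at 6 days, against 4 and 3 with GC correction, and 0 were called with PRMT5i (5 rose and 1 fell with the block). Of the 6 melanocyte genes analysed, DCT, an enzyme of melanin synthesis, was at 96.1 and 70.4 CPM in the CHL1 controls. It had no count in the A375 controls of 72 hours, a difference of at least 572-fold. Against the A375 control of 6 days, which belongs to the library set of CHL1, its log2 fold change was smaller, 7.49 (SE 0.36).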
